A study of Mus musculus with 3 samples.

Results

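Motile cilia axoneme genes were described in 3 RNA sequencing libraries of cultured mouse cortical astrocytes. The genes were the rows of the deposited table whose symbol is a Cfap, Dnah, Dnai, Drc, Rsph, Tekt or Spag name followed by a number, together with Ccdc39, Ccdc40, Ccdc153, Dynlrb2, Spef2 and Tmem212. This gave 93 of 19471 genes. The cells were isolated from cortices of WT pups aged postnatal day 1 and grown for 7 days before RNA was collected. The 3 libraries are biological replicates of a single group, replicates 1, 2 and 3 from pups 5, 6 and 8, and poly(A) RNA was sequenced with a stranded kit. The titles give the age as P1 while the sample descriptions begin with P0. All the descriptions end in Ctrl, which labels the cultures as controls. No other genotype, age or treatment was analysed here, so the comparisons are between structures, between genes within a structure and between libraries. Each library came from 1 pup, so effects of the animal, its culture and its library cannot be told apart.

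The axoneme is the microtubule core of a cilium. In motile cilia it is a ring of doublet microtubules around a central pair, and it beats because dynein motors on each doublet walk along the neighbouring one. Outer dynein arms set beat frequency and inner arms set the waveform, radial spokes pass signals from the central apparatus to the inner arms, and the nexin-dynein regulatory complex links doublets and limits their sliding. In the brain, motile cilia are carried by ependymal cells and by choroid plexus epithelium, while astrocytes and neurons carry a primary cilium without dynein arms, spokes or central pair. The programme is switched on by the transcription factor Foxj1 and by RFX factors, which bind X-box motifs in promoters.

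The members were chosen by name, but they were proposed with their levels in this table known, so the levels are given as a description without a test. By published roles, 73 members belong to an axonemal structure. Another 13 are Cfap genes of less certain place, dynein assembly factors or Tmem212, and 7 act mainly elsewhere: Spag4 in the nuclear envelope, Spag5 on the mitotic spindle, Spag9 as a kinase scaffold, and Spag7, Cfap36, Cfap410 and Cfap418, which are not components of the motile axoneme. The name rule therefore collects more than its label, and the 7 were kept apart below. Of the 93 members, 86 averaged at least 10 normalized reads, against 71.6% of all genes, and 59 an average of at least 100. The share of all reads taken by the axonemal members was 0.211% in replicate 1 (95% Wilson interval 0.209% to 0.213%) and 0.149% in replicate 2 (95% Wilson interval 0.148% to 0.151%) and 0.214% in replicate 3 (95% Wilson interval 0.211% to 0.217%). These intervals cover counting error only.

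The libraries held 14380993, 25128038 and 9858626 reads, and a count of 0 allows up to 3 reads, a normalized count of 2.44, 1.42 or 3.59. Whether a gene's whole reads differed among the libraries was asked with a chi-square test, adjusted over 13941 genes. It measures how far the libraries lie apart relative to counting error. It called 55.4% of all genes at an adjusted p under 0.05, and 15.1% of all genes with replicate 2 as the lowest library. These shares are the background for the counts by structure and by list below. Mitochondrial genes took 0.699%, 1.1002% and 1.03% of reads. Replicate 2 stood apart for the motile cilia genes, and it was also the most deeply sequenced library, so the counts of members that differed are also given without it. Counts by structure and by list and the SDs are given with all 3 libraries only. In bulk RNA, fewer ciliated cells and less ciliary RNA per cell cannot be told apart. Counts of members that passed a filter on low values are not used as support for their level.

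**Figure D1:**
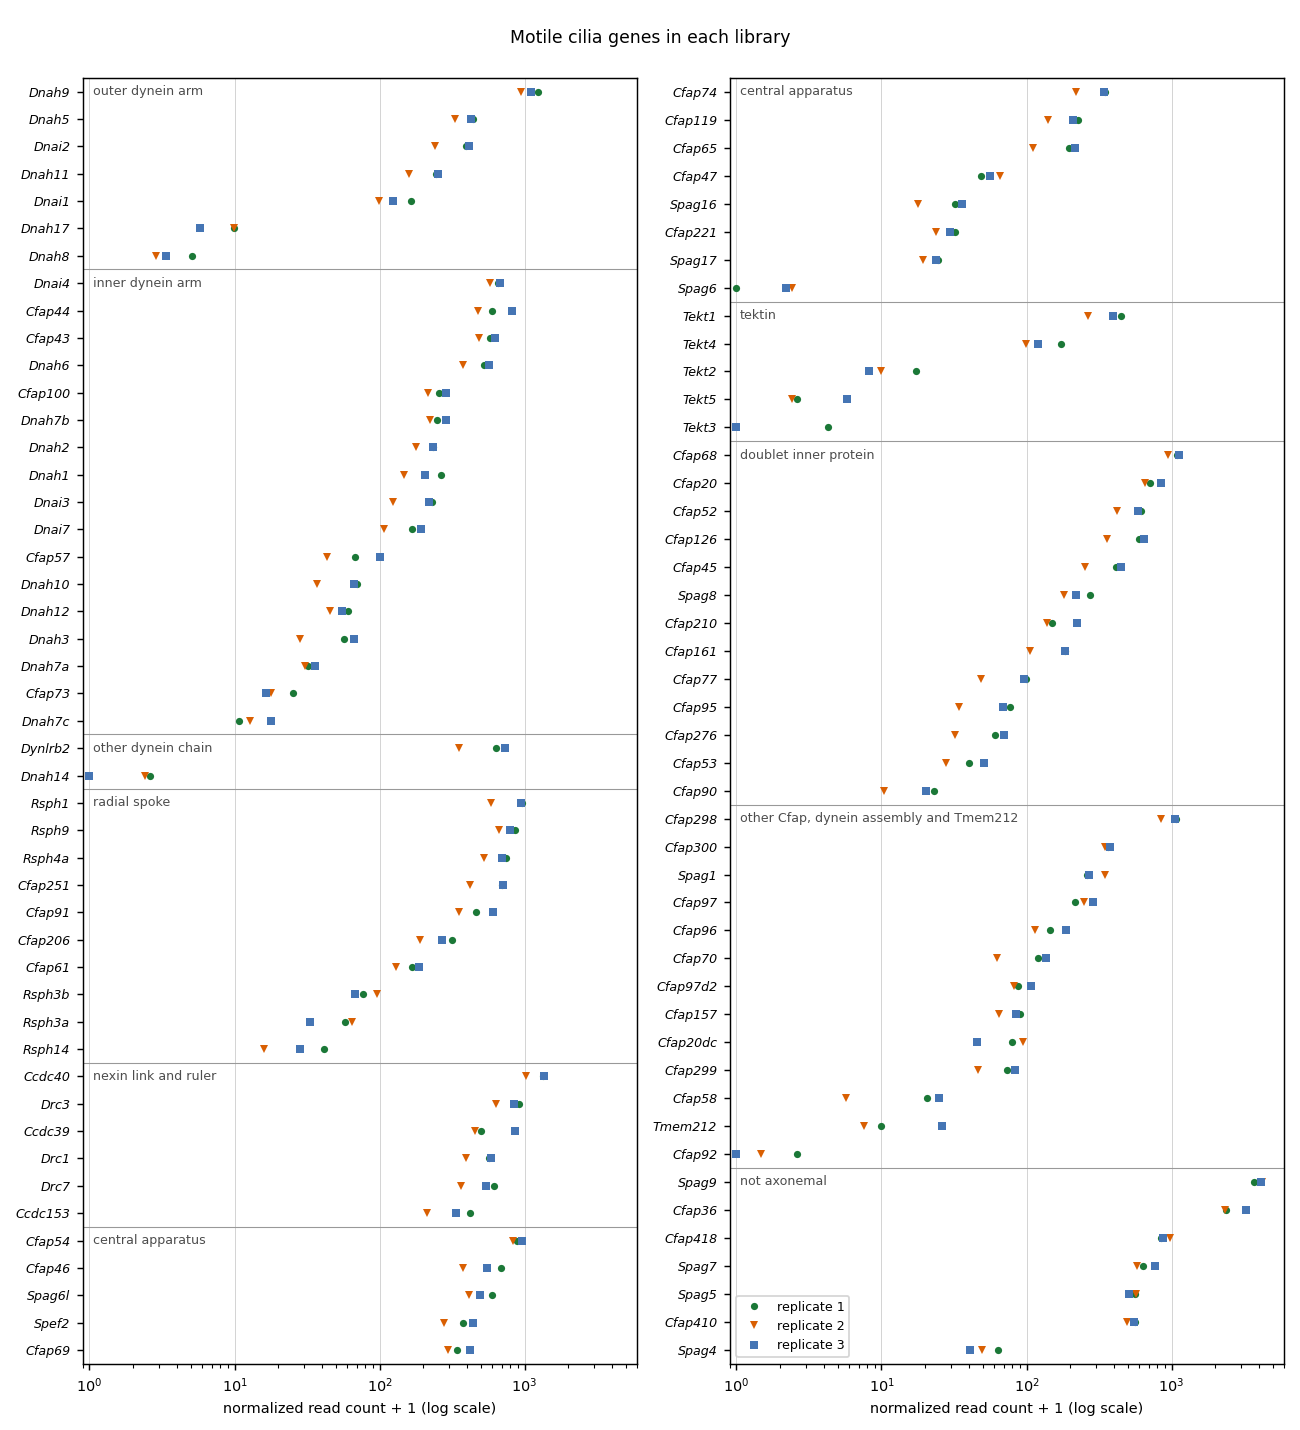
Normalized read count plus 1 (log axis) of all 93 members in each library, by structure and by falling mean within a structure; circles, triangles and squares are replicates 1, 2 and 3. Replicate 2 (triangles) is leftmost for most axonemal members, and the Spag and Cfap genes that act elsewhere show no common order.

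Promoter sequence was available from RefSeq (GRCm38.p6, the build named mm10 in the submitters' processing notes) for 79 of the 93 members, as windows from 250 bases before to 50 bases after the transcript start. It was searched for an X-box of 14 bases and a forkhead site spelled TGTTTAC, on both strands. The X-box was found in 23 of 79 members (29.1%), against 1422 of all 27025 mouse genes with a RefSeq window (5.26%), whether or not they are in the deposited data. Among axonemal members it was found in 19 of 65 (29.2%). The forkhead letters occurred in 4 of 79 members (5.06%), against 4.05% of those genes, and among members only the promoter of Dnah17 held both. Of the 26 X-box matches, 14 began within 150 bases before the start, some of them reaching past it, as in Rsph9. The stretches below show matches that lie wholly within the 150 bases before the start. For each structure with one in a member averaging at least 100 normalized reads, the match of the most abundant such member is given, 5′ to 3′ on the gene's strand, with the X-box letters in capitals.
Cfap44, chr16:44394739-44394798, plus strand: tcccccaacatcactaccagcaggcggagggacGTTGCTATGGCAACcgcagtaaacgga
Cfap206, chr4:34730207-34730266, minus strand: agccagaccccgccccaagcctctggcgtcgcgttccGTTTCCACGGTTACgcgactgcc
Cfap119, chr7:127588223-127588282, minus strand: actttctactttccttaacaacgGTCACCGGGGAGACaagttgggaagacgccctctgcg
Tekt1, chr11:72361883-72361942, minus strand: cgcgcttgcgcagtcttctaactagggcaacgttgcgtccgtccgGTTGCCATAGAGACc
Cfap126, chr1:171122940-171122999, plus strand: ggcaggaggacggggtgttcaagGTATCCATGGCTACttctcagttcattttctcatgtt
Cfap96, chr8:45975253-45975312, minus strand: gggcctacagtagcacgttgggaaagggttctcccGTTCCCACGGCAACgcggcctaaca
The matches begin 27, 23, 101, 15, 82 and 25 bases before the start in the order printed, and the match of Cfap44 reads on the minus strand of the gene. A match describes these letters and not a bound site. Members without a RefSeq window were Cfap157, Cfap299, Cfap418, Cfap53, Cfap54, Cfap65, Cfap73, Cfap92, Cfap97, Dnah3, Dnai4, Rsph1, Rsph4a and Spag1.

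The heavy chains of the outer dynein arm that serve motile cilia were well above those that serve sperm tails. Dnah9, the distal outer arm heavy chain (ENSMUSG00000056752, chr11:65831282-66168551, minus strand in mm10), had normalized read counts of 1244, 942 and 1112 in replicates 1, 2 and 3, a mean of 1099 ± 152 (SD, n = 3). Dnah5, the heavy chain found along the whole cilium, stood at 441, 329 and 425. Dnah11, the proximal partner of Dnah5, stood at 246, 158 and 251. In all 3 genes replicate 2 was the lowest library. The sperm heavy chain Dnah17 had 8.95, 8.96 and 4.78 and the other sperm heavy chain Dnah8 4.07, 1.89 and 2.39, from 34 and 11 reads over all libraries. Per kilobase of exon, Dnah9 had 68.9 normalized reads, Dnah5 25.5, Dnah11 15.1, Dnah17 0.469 and Dnah8 0.104. Within a library the ratio of Dnah9 to Dnah5 per kilobase was 2.77, 2.804 and 2.57, so it varied little while both levels moved. The intermediate chains, which anchor the motor, were Dnai2 at 396, 242 and 411 and Dnai1 at 163, 98.6 and 123. Per kilobase they reached 76.6 and 46.1, on either side of Dnah9. All 5 outer arm genes averaging at least 10 differed between libraries by the chi-square test, with adjusted p from 2.03e-18 for Dnai2 to 5.01e-06 for Dnai1, and all 5 were lowest in replicate 2.

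Inner arm genes had a lower median level per kilobase of exon than the outer arm genes, 4.06 against 4.73 on the log2 scale. The gap was smaller with the longest transcript as length, at 4.42 against 4.73. The highest heavy chain was Dnah6, one of the single-headed inner arms, with 524, 373 and 568. Dnah2 and Dnah10 are the heavy chains of the dimeric inner arm, and they stood at 234, 179 and 232 and at 69.1, 35.9 and 65.8. Per kilobase they differed 4.06-fold although the proteins work as a pair, and the ratio was 3.64, 5.36 and 3.79 within the 3 libraries. The single-headed heavy chain Dnah1 had 264, 148 and 203, Dnah12 59.4, 44.8 and 53.8 and Dnah3 56.1, 27.4 and 65.8, the last with 10.5% of its exon bases under antisense exons. Dnah7a, Dnah7b and Dnah7c, near-identical copies of another single-headed chain, had means of 31.8 ± 2.59, 251 ± 32.1 and 12.8 ± 3.59, but 38.6%, 30.05% and 46.8% of their 50-base stretches are shared with other genes, so the split between them is uncertain. Of the inner arm intermediate chains, Dnai4 at 87.1 and Dnai3 at 57.4 normalized reads per kilobase lay above Dnah6 at 36.9, and Dnai7 at 12.7 lay below it. The exons of Dnai7 add up to 12207 nucleotides, but its longest transcript has 4308, so its level per kilobase is lowered. Dnai4 had normalized read counts of 657, 578 and 673, Dnai3 230.2, 123 and 218 and Dnai7 166, 107 and 193. Cfap44 and Cfap43, which tether the dimeric inner arm to the doublet, were at 595, 476 and 820.3 and at 576, 487 and 625. The inner arm factors Cfap100, Cfap57 and Cfap73 had means of 253 ± 37.2, 69.9 ± 29.1 and 18.98 ± 4.75. Of 17 inner arm genes, 13 differed between libraries and all 13 were lowest in replicate 2, with the smallest adjusted p for Cfap44 at 1.68e-26 by the chi-square test. Dnah12, Dnah7a, Dnah7c and Cfap73 did not pass.

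The light chain Dynlrb2 had the highest level of the 93 members per kilobase of exon, and the second largest SD of log2 values among the 59 members averaging at least 100. Its product is a roadblock light chain enriched in ciliated tissue. It lies at chr8:116504974-116515915, plus strand in mm10, and its exons span 556 nucleotides. Its normalized read counts were 639, 350.02 and 728, a mean of 573 ± 198 (SD, n = 3) or 1029.7 per kilobase, and replicate 2 held 0.512 times the mean of the other libraries (chi-square test, adjusted p = 5.65e-49). Cfap36 followed at 968 per kilobase. The exons of Cfap36 add up to 2744 nucleotides, but its longest transcript has 1664, so its order with Dynlrb2 depends on the length used. Dnah14, a heavy chain whose arm is not settled, had 5 reads in all libraries together.

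Radial spoke head genes were among the highest members. Rsph1, a spoke head protein (chr17:31255019-31277383, minus strand in mm10), had normalized read counts of 955, 588 and 938, a mean of 827 ± 207 (SD, n = 3) and 603 per kilobase. Rsph9, another spoke head protein, had 865, 663 and 790.4, and Rsph4a, the spoke head scaffold of motile cilia, had 739, 523 and 699.5. Replicate 2 was again below both other libraries for each of the 3. Per kilobase Rsph9 reached 482 and Rsph4a 179, and the ratio of Rsph9 to Rsph4a was 2.67, 2.89 and 2.57 within libraries. The exons of Rsph9 add up to 1602 nucleotides, but its longest transcript has 966. Its order with Rsph1 and the size of its ratio to Rsph4a therefore depend on the length used. The genes of the spoke base and of the calmodulin-binding complex beside it followed, with Cfap251 at 698, 417 and 704 and Cfap91 at 461, 353 and 606. Cfap206, a docking protein of a spoke, had a mean of 256 ± 63.8 and Cfap61 160.02 ± 28.7. The spoke stalk copies Rsph3a and Rsph3b did not share this order, with 56.9, 63.7 and 32.3 and with 75.6, 94.3 and 66.96, so both were highest in replicate 2. They share 58.1% and 69.2% of their 50-base stretches with other genes, mostly each other, so their separate values are uncertain. Rsph14, named as a spoke protein, had 40.7, 15.1 and 27.5. Of 10 spoke genes, 9 differed between libraries, 8 of them lowest in replicate 2 and Rsph3a lowest in replicate 3. The smallest adjusted p was that of Rsph1 (3.75e-39, chi-square test).

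The nexin-dynein regulatory complex and the coiled-coil ruler beneath it had similar levels per kilobase of exon apart from Ccdc39. Both this closeness and the place of Ccdc39 depend on the length used. Ccdc40 and Ccdc39 together form the ruler that sets the spacing of arms and spokes. Ccdc40 (chr11:119228572-119265238, plus strand in mm10) had 1348, 1016 and 1355, a mean of 1239.5 ± 194 (SD, n = 3), the highest of any axonemal member without division by length. Ccdc39 had 502, 455 and 856, and here replicate 3 stood far above the other libraries. Antisense exons of Ttc14 cover 16.9% of its exon bases, and the strand setting of the counting is not given in the sources used here. Drc3, Drc1 and Drc7, subunits of the regulatory complex, had 922, 630.2 and 844, then 567, 396 and 585, and 611, 362 and 540.5. Ccdc153, a further member of that complex, had 421, 210.4 and 336. Per kilobase of exon, 5 of these 6 genes lay between 158 for Ccdc153 and 206 for Ccdc40, and Ccdc39 at 81.2 was apart from them. The exons of Ccdc39 add up to 7443 nucleotides, but its longest transcript has 3606, so its distance from the others rests on the length used. Drc3 has 4519 and a longest transcript of 2438, and Ccdc153 2036 and 1087, so the order and closeness of the other 5 rest on it too. All 6 differed between libraries and were lowest in replicate 2, with adjusted p from 4.64e-39 for Ccdc39 to 2.85e-15 for Drc1 in the chi-square test.

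Central apparatus genes spanned a wide range. Cfap54, a large central pair projection protein, had 883, 834 and 963 and was among the steadiest members, with an SD of log2 values of 0.10. Cfap46 had 691, 373 and 549, and its replicate 2 value was 0.602 times the mean of the other libraries. Spag6l, the armadillo-repeat protein needed for central pair stability, had 592, 411 and 495, while its paralog Spag6 had 4 reads in all libraries together. Spef2, a central pair protein needed for cilia and sperm tails, had 376, 277 and 438. The lower members were Spag16 at 30.9, 16.98 and 34.7 and Spag17 at 23.6, 18.4 and 22.7, both central pair projection proteins, and Cfap221, at 30.9, 22.6 and 28.7. Antisense exons cover 15.7% of the exon bases of Spag17 and 25.6% of those of Cfap119. The other 5 were Cfap69, Cfap74, Cfap119, Cfap65 and Cfap47, with means of 352, 302, 191, 173 and 55.8. Of the 12 central apparatus genes averaging at least 10, 9 differed between libraries and all 9 were lowest in replicate 2. Cfap47, Cfap221 and Spag17 did not pass, and Cfap47 was highest in replicate 2.

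Tektins divided into expressed and near-absent genes. Tektins are filaments inside the doublet wall. Tekt1 (chr11:72344722-72362442, minus strand in mm10) had 451, 266 and 395, a mean of 370.4 ± 94.6 (SD, n = 3), and Tekt4 had 172, 98.6 and 118. Tekt2 had 16.3, 8.96 and 7.17, from 45 reads in all, and antisense exons cover 20.8% of its exon bases. Tekt5, known from sperm, had 1.63, 1.42 and 4.78. Tekt3 had 3.25 in replicate 1 and no read in replicates 2 and 3, so the last 2 genes lay near the level that a count of 0 allows. Per kilobase the order was Tekt1 at 228, Tekt4 at 64.999, Tekt2 at 5.69, Tekt5 at 1.44 and Tekt3 at 0.6204. Tekt1 and Tekt4 differed between libraries (adjusted p = 1.64e-18 and 9.24e-08, chi-square test) and were lowest in replicate 2. Tekt2 did not pass (adjusted p = 0.112).

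The other proteins inside the doublet had, among the structures with 3 or more genes tested, the lowest median ratio of replicate 2 to the other libraries. All 13 averaged at least 10, all 13 differed between libraries and all 13 were lowest in replicate 2. Cfap52, a doublet lumen protein, had 611, 419 and 582. Cfap126, which also orients basal feet and is known as Flattop, had 595, 356 and 647 and the highest level of these genes per kilobase, 300.3. Cfap45 had 409.9, 252 and 447 and the lumen protein Spag8 274, 182 and 220.03. In Cfap77, Cfap95, Cfap276 and Cfap90 replicate 2 held 0.491, 0.466, 0.484 and 0.459 times the mean of the other libraries. Cfap68 at 1083, 944 and 1123 and Cfap20 at 705, 652 and 844, which is also found at centrioles and in primary cilia, were lowered least. The remaining 3, Cfap210, Cfap161 and Cfap53, had means of 169, 158 and 38.7. Antisense exons cover 30.1% of the exon bases of Cfap68. The median ratio of replicate 2 to the mean of the other libraries was 0.589 over these 13 genes.

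**Figure D2:**
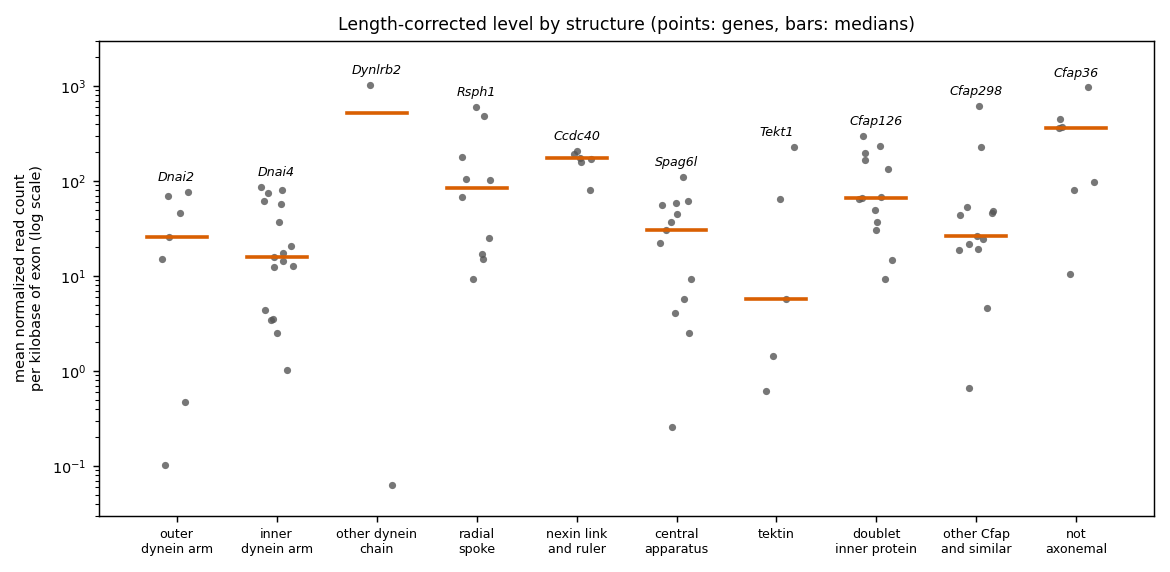
Mean normalized read count per kilobase of exon (log axis) of each member by structure; points are genes, bars are medians and the highest gene is named. By this length the nexin link and ruler genes lie close together at a median of 173, while outer arm, central apparatus and tektin genes each spread over more than 100-fold.

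Per kilobase of exon, the medians of the structures were 25.5 normalized reads for the outer arm, 15.7 for the inner arm, 85.4 for radial spokes, 173 for the nexin link and ruler, 30.3 for the central apparatus, 5.69 for tektins and 66.2 for the other doublet proteins. The median over all genes was 33.9. The same medians on the log2 scale varied over libraries by an SD of 0.22 for the outer arm up to 0.52 for tektins. Per kilobase of exon, the outer arm at 4.73 and the central apparatus at 4.97 did not differ beyond that spread. With the longest transcript as length they stood at 4.73 and 5.72, so the comparison depends on the length used. Exon lengths were the union of all annotated exons, which lowers the value of genes with long rarely used exons.

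Outside these structures, 10 of 12 genes averaging at least 10 differed between libraries, 7 of them lowest in replicate 2. Cfap298 and Cfap300 are needed to build dynein arms in the cytoplasm. Cfap298 had 1064, 839 and 1056, with 53.6% of its exon bases under antisense exons, and Cfap300 had 363, 344 and 375, the smallest SD of log2 values among members averaging at least 100 (0.06). Spag1, another assembly factor, had 259, 349 and 268 and was highest in replicate 2. Cfap70 had 119.6, 61.8 and 136 and the largest SD of log2 values at that level (0.60). It was followed by Dynlrb2, Cfap65, Ccdc153 and Dnai3 at 0.56, 0.53, 0.51 and 0.50. Tmem212, a membrane protein gene used as an ependymal marker, was low at 8.95, 6.604 and 25.1, highest in replicate 3. Cfap58 had 19.5, 4.72 and 23.9, from 54 reads, and Cfap92 had 3 reads in all libraries together. Cfap97 had 215, 247 and 285. The other 5, Cfap96, Cfap97d2, Cfap157, Cfap20dc and Cfap299, had means from 66.7 to 147, and Cfap20dc was highest in replicate 2. Antisense exons cover 10.6% of the exon bases of Cfap157.

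The 7 genes that act elsewhere included the most abundant of the 93 and did not share the order. Spag9 had 3692, 4189 and 4139 and Cfap36 2365, 2343 and 3262. Cfap418, a photoreceptor cilium protein, had 845, 972 and 867, Cfap410 561, 496 and 552, Spag7 629.5, 577 and 769, Spag5 559.6, 572 and 511 and Spag4 62.6, 48.6 and 39.5. Of the 7, 5 differed between libraries. Replicate 2 was lowest in 3 of the 7, and the median ratio of replicate 2 to the mean of the other libraries was 0.952. Spag5, Cfap410 and Spag9 were, beside Cfap300 and Cfap54, the members with the smallest SD of log2 values at averages of at least 100 (0.09, 0.10 and 0.10).

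Across the axoneme, the libraries differed together. Of the 67 axonemal members averaging at least 10, 61 were lowest in replicate 2, as were 27.6% of all genes. By the chi-square test 58 of the 67 differed between libraries, 57 of them lowest in replicate 2 and 1 lowest in replicate 3. Over all 86 members tested, 73 differed (84.9%, against 55.4% of all genes), 67 of them with replicate 2 lowest, against 15.1% of all genes. Replicate 1 was lowest in 4 of the 73, against 19.9% of all genes, and replicate 3 in 2, against 20.5% of all genes. The direction was counted after replicate 2 was seen to be the lowest library. Among genes averaging at least 100, where reads suffice for smaller differences, 64.5% of all genes differed and 16.5% with replicate 2 lowest. The median log2 deviation of axonemal members from their own mean over libraries came to 0.20, -0.36 and 0.19 in replicates 1, 2 and 3. Over all genes averaging at least 10 it was 0.003, 0.008 and -0.000815. The median ratio of replicate 2 to the mean of the other libraries was 0.682 for axonemal members, against 1.002 for all genes. Scaling by TMM, which uses the bulk of genes, gave -0.35 in replicate 2 for axonemal members, and counts scaled by library total gave -0.36. Members are not independent replicates, since they share the same 3 libraries.

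**Figure D3:**
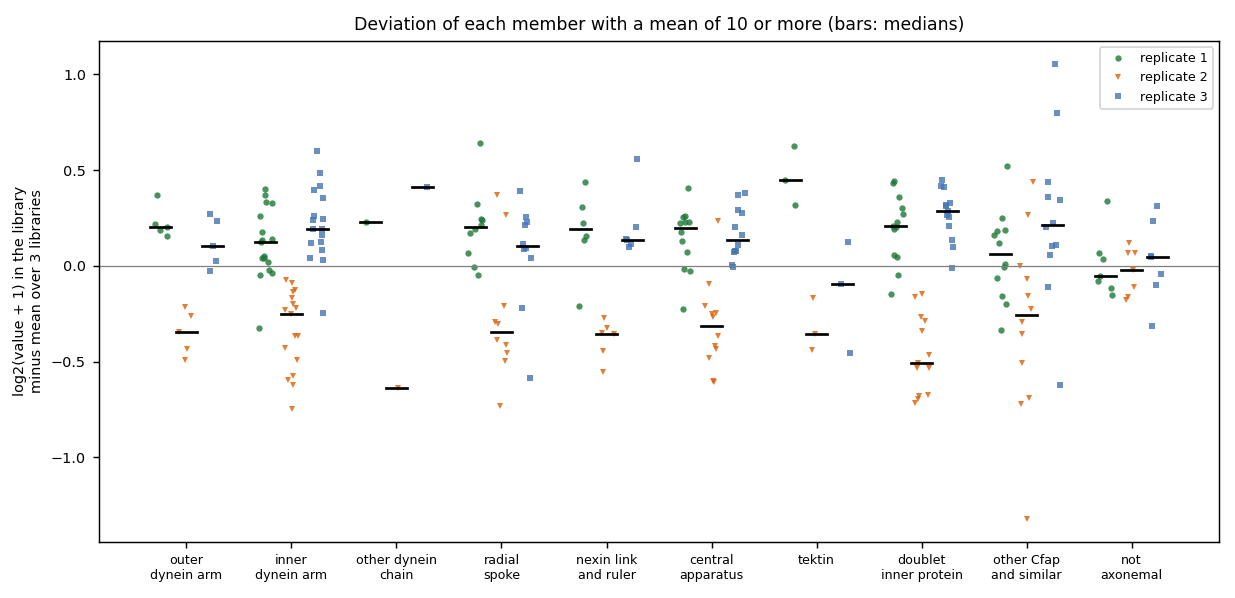
Log2(value + 1) in each library minus the mean over the 3 libraries, for each member averaging at least 10, by structure; circles, triangles and squares are replicates 1, 2 and 3 and bars are medians. Every axonemal structure has its median in replicate 2 below 0, from -0.25 for the inner arm to -0.64 for Dynlrb2 alone, and the genes that act elsewhere have a median of -0.02.

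Without replicate 2 the members no longer stood above the background. Between replicates 1 and 3 alone, 22 of 84 members differed (26.2%), against 40.2% of all genes, and 16 of 65 axonemal members (24.6%). Without replicate 1 it was 64 of 85 members against 35.8% of all genes, and without replicate 3 it was 61 of 85 members against 37% of all genes. The spread of the members was also wider than that of other genes with all 3 libraries. The median SD of log2 values was 0.31 over the 59 members averaging at least 100, against 0.14 over all such genes. SDs above 0.3 were found in 28 of 47 axonemal members at that level, and 30 of all 59 members, against 8.54% of all such genes.

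**Figure D4:**
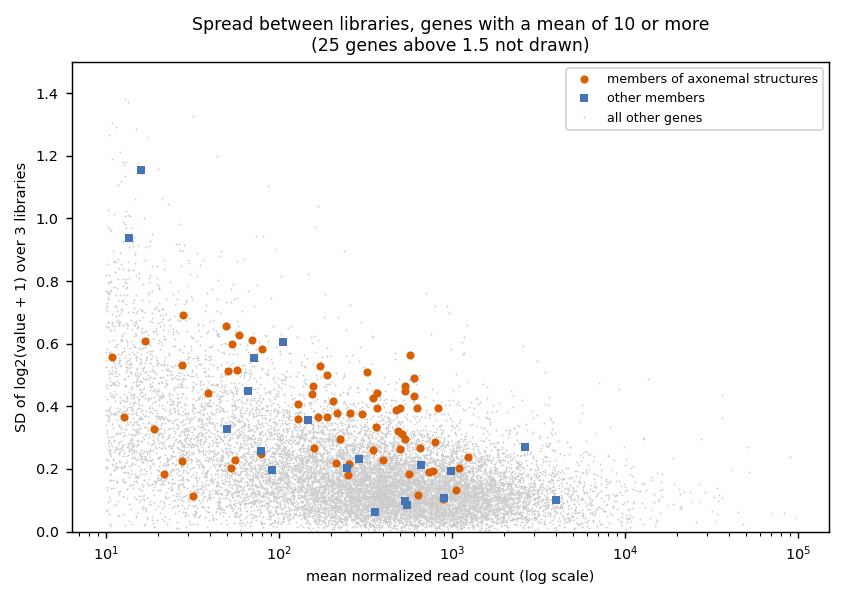
SD of log2(value + 1) over the 3 libraries against the mean normalized read count (log axis), for genes averaging at least 10; 25 genes above 1.5 are not drawn. Axonemal members (circles) lie mostly above the cloud of other genes at the same level, and other members (squares) lie on both sides.

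Genes of the same structures that the name rule did not cover were described from a list of other axonemal proteins. Of its 42 genes in the table, 38 averaged at least 10, 33 of them differed between libraries and 30 of these were lowest in replicate 2. Over all genes tested, 55.4% differed and 15.1% differed with replicate 2 lowest. Lrrc23, a spoke protein, had 843, 425 and 666, the outer arm docking gene Odad1 506, 318 and 477 and the central pair gene Hydin 163, 93.4 and 213. Among the highest were Iqcg, a regulatory complex subunit, at 1270.5, 1095 and 1522 and the light chain gene Dnal1 at 936, 982 and 1150.3. Dnal1 was highest in replicate 3 and lowest in replicate 1. The list's median log2 deviation in replicate 2 was -0.37. Hydin, Lrrc23 and Odad1 were chosen after their values were seen, as was Dnal1's order.

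Regulators and builders of motile cilia had median deviations in replicate 2 nearer 0, a difference that was not tested, and single genes ranged widely. Foxj1 had normalized read counts of 11671, 8764 and 9465, and the next highest regulators were Rfx4 at 1427, 1352 and 1325 and Tfdp1 at 1027, 1033 and 966. Mcidas, which starts multiciliated differentiation, had 165, 92.9 and 124 and Rfx3 642, 732 and 878, lowest in replicate 1. Of 16 regulator genes, 13 differed between libraries and 9 of these were lowest in replicate 2, with a median deviation of -0.13 in that library. Their deviations there ran from -0.50 for Foxn4, -0.43 for Myb and -0.41 for Mcidas to 0.03 for Tfdp1 and 0.14 for E2f5. Of 16 dynein assembly genes averaging at least 10, 14 differed and 13 were lowest in replicate 2, with a median deviation of -0.21 and a range from -0.66 for Dnaaf1 to -0.03 for Pih1d1. The highest were the chaperone Ruvbl2 at 1615, 1158 and 1331, Dnaaf5 at 725, 586 and 609.9 and Pih1d1 at 599, 547 and 533. Centriole amplification genes, which make the many basal bodies, had 8 of 13 called and 5 lowest in replicate 2, led by Cetn2 at 1098, 1169 and 1879, Plk1 at 560.4, 612 and 600.3 and Cep63 at 449, 429 and 445. Tubulin and tubulin-modifying genes had 10 of 20 called, 8 of them lowest in replicate 2, led by Tuba1a at 20073, 17778 and 19311, Tubb4b at 8857, 7698 and 7217 and Ttll5 at 642, 562 and 682. The shares called were 81.25% of regulators, 87.5% of dynein assembly genes, 61.5% of centriole genes and 50% of tubulin genes. Among all genes it was 55.4%, with 15.1% called and lowest in replicate 2. The centriole and tubulin shares called therefore lie near the background. Their counts called with replicate 2 lowest, 5 of 13 and 8 of 20, lie above the 15.1% of all genes.

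Genes shared with the primary cilium had the median deviations in replicate 2 nearest 0 among the ciliary lists. Of 25 intraflagellar transport genes, 20 differed between libraries and 15 were lowest in replicate 2, with a median deviation of -0.09 there. The highest were Ift80 at 1569.8, 1753 and 1814, the motor gene Kif3b at 1456, 1565 and 1488 and Ift22 at 1609.6, 1397 and 1428. Of 26 basal body and primary cilium genes, 17 differed and 14 were lowest in replicate 2, with a median deviation of -0.11, and among the highest were Pcm1 at 1852, 2593 and 2081 and Arl3 at 1145, 1086 and 1575. All 26 averaged at least 100, where 64.5% of all genes differed and 16.5% differed with replicate 2 lowest. The 65.4% called among these 26 is therefore near the background, while the 14 called with replicate 2 lowest lie above the 16.5%. Whether these deviations differ from those of the axoneme was not tested.

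**Figure D5:**
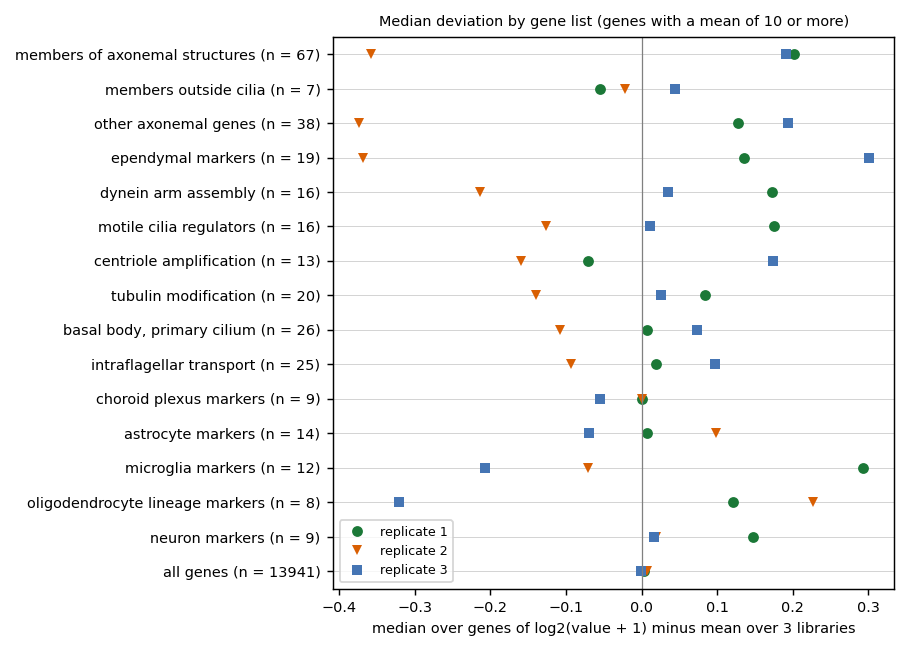
Median over the genes of each list of log2(value + 1) minus the mean over the 3 libraries, for genes averaging at least 10; circles, triangles and squares are replicates 1, 2 and 3. Replicate 2 is low for axonemal members, other axonemal genes and ependymal markers, nearer 0 for transport and basal body genes, and above 0 for astrocyte and oligodendrocyte lineage markers.

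Most ependymal markers were lowest in replicate 2, like the axoneme, but several of them are themselves cilia genes, and choroid plexus markers were divided. Of 21 ependymal markers that are no member, 19 averaged at least 10, 18 of these differed between libraries and 17 were lowest in replicate 2. The list's summed normalized read count was 22783, 17579 and 21818, and Sntn, a ciliary tip gene, was at 0.813, 0 and 2.39. Foxj1, Cd24a and Tppp3 were its highest genes, and Foxj1 alone had 11671, 8764 and 9465 of the list's sums. Cd24a was lowest in replicate 1, at 2691, 3272 and 3535, and Mia, at 14.6, 14.6 and 15.5, did not pass. Of the 21, 8 also stand in the lists of regulators, dynein assembly genes or other axonemal genes above. Rarres2 at 354, 215 and 277 and Hdc at 211, 129 and 171 stand in none of those lists and were lowest in replicate 2. Cd24a, lowest in replicate 1, stands in none of them either. The list therefore does not measure ependymal cells apart from cilia genes. Of the choroid plexus markers, 9 of 13 averaged at least 10, 4 of these differed, 2 lowest in replicate 2 and 2 in replicate 3. The shares that differed were 94.7% for ependymal and 44.4% for choroid plexus markers, against 55.4% of all genes. Their summed level was 1218, 1617 and 1222, and Folr1 had 425, 334 and 386, Cldn2 349.7, 350.5 and 408 and Ttr, the choroid plexus carrier protein, 31.7, 557 and 13.2. The high sum in replicate 2 rests on Ttr: without it, a choice made after its values were seen, the other 12 markers summed to 1186, 1059.95 and 1209, lowest in replicate 2. The part of ependymal or choroid plexus cell content in the result was not tested.

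Markers of other cells shared no single order, and those of neurons were divided over the 3 libraries. Among all genes 55.4% were called, or 64.5% at averages of at least 100, and 15.1% were called with replicate 2 lowest. Astrocyte markers had 13 of 14 called, 2 lowest in replicate 2, with summed levels of 172813, 173487 and 154174, led by Gfap, Clu and Mlc1. Of the 15 astrocyte markers in the table, 14 averaged at least 10, with Gfap at 54430.2, 57624 and 44794. The lowest were S100b at 76.5, 83.0 and 46.6 and Gjb6 at 2.44, 2.83 and 3.59, near the level that a count of 0 allows. Microglia markers had 11 of 12 called, 3 lowest in replicate 2, with sums of 38736, 30076 and 27038, led by Csf1r, Ctss and C1qa. Oligodendrocyte lineage markers had 8 of 8 called, 1 lowest in replicate 2, led by Olig1, Cnp and Olig2, with sums of 13758, 14013 and 11951. Neuron markers had 5 of 9 called (55.6%, near the share of all genes), 2 lowest in replicate 2, and their sums of 3787, 3496 and 3874 were lowest in replicate 2. Of these 9, called or not, 2, 3 and 4 were lowest in replicates 1, 2 and 3, and their median deviation in replicate 2 was 0.02. The highest were Map2 at 2501, 2599 and 2594, Stmn2 at 701, 527 and 779.7 and the synaptic vesicle gene Syt1 at 222, 35.9 and 244. Replicate 2 held 0.712 times the mean of the other libraries for Stmn2 and 0.154 times for Syt1, a lower ratio than in any axonemal member averaging at least 10. The low neuron sum in replicate 2 rests on Stmn2 and Syt1. Tubb3 at 190, 162 and 118 and Elavl3 at 101, 93.4 and 59.8 were lowest in replicate 3. The part of neuron content in the result was not tested. Of the male germ cell list 4 genes were in the table, and only Tcp11, at 78.1, 57.1 and 46.6, averaged at least 10, the next being Ddx4 and Spem1 at means of 4.45 and 1.07.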

How the data were processed

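For each of 19471 genes the authors deposited a signal in 3 libraries, which is a normalized read count. Per the submitters' processing notes, DESeq2 was used with build mm10. Aligner, counter, strand setting and annotation: not given in the sources used here. Dividing the deposited values by the worth of 1 read (0.813, 0.472 and 1.196) gave whole reads for 100% of values within 0.05 reads. Log2 values use a pseudocount of 1, which understates changes of low genes. Exon lengths, positions and shared 50-base stretches came from GENCODE vM21. The chi-square test took expected reads in proportion to library totals. It ran on genes averaging at least 10 normalized reads with 30 reads or more, and Benjamini-Hochberg adjustment covered 13941 genes. It was tried on simulated data with counting error alone, which does not show how it behaves where libraries differ beyond that error. The labels name biological replicates, and p-values set the differences between these 3 libraries against counting error, so they do not describe a population of pups. The authors' mean column was not used. The software was Python 3.11.15 (SciPy 1.17.1, pandas 2.3.3, numpy 2.4.6, matplotlib 3.10.9) and R 4.3.3, where edgeR 4.0.16 and DESeq2 1.42.0 gave the scale factors of the alternatives. Alternatives changed the scaling, pseudocount, filter, exon length, members kept and libraries kept.

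The members, the gene lists and the structural grouping were chosen with earlier results of these data known. The named genes are all dynein, spoke, tektin, Drc and Spag members, Ccdc39, Ccdc40, Ccdc153, Spef2 and Tmem212, the 12 highest and 5 lowest Cfap genes, the 5 largest and 5 smallest SDs at averages of at least 100, fixed paralog pairs and the 3 highest genes of each list, of which some are not reported here. Any gene outside that rule was picked with its values in view. List members without a row were not analysed here.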

Additional observations from a re-analysis of the deposited data

How the results depend on the processing

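The number of members whose reads differed between libraries was 73, and it was 22 to 64 when 1 library was left out, the lowest without replicate 2. It stayed at 73 under TMM library sizes, DESeq2 size factors and no filter on the mean, and was 57 of 59 at a mean of 100 or more. The median deviation of the members in replicate 2 was -0.33, and lay between -0.34 and -0.24 under the other scalings, pseudocounts, filters and left-out libraries, and was -0.36 for axonemal members alone. Median log2 levels without division by length were 7.78 for the outer arm, 7.58 for the inner arm, 8.45 for radial spokes, 9.13 for the nexin link and ruler, 7.58 for the central apparatus, 3.56 for tektins and 7.41 for the other doublet proteins. With the longest transcript as length, the outer arm stayed at 4.73 and tektins were at 3.00. With that length the inner arm was at 4.42, radial spokes at 6.91, the nexin link and ruler at 7.84, the central apparatus at 5.72 and the other doublet proteins at 6.54. With members of a mean of 10 or more alone, the outer arm was at 5.56 and tektins at 6.04. Member reads, scaled to an equal library total, were 3071, 2459 and 3226 over all members, and 2626, 1975 and 2740 without Spag1, Spag4, Spag5, Spag7 and Spag9. These shifts follow from the length used and the genes kept. No paired analysis was possible because the study has a single group. Of the 7 lowest members, 6 had under 30 reads and were not tested, and Dnah17, with 34 reads, was tested only without the filter on the mean.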
